A study of Mus musculus with 4 samples.

Results

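The gp130 cytokine pathway was followed in injured mouse cortex through 10 genes: the ligand genes Cntf, Lif, Il6 and Osm, the receptor genes Cntfr, Lifr, Osmr and Il6st, the transcription factor gene Stat3 and its inhibitor gene Socs3. Every array spot outside the controls whose RefSeq accession belonged to one of these genes was taken, and each probe was kept separate, which gave 14 of the 39429 probes on the array and 10 of the 20832 genes named there. Cntf and Stat3 had 2 probes each, Lifr had 3, and the other 7 genes had 1 each. The set was chosen on the measured ratio of Cntfr, knockout over wild type on these same arrays, so the ratios and levels of the 14 probes are a description and carry no p-value.

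Cytokines of this family share gp130, the signalling chain encoded by Il6st. Interleukin-6 first binds its own receptor chain, whereas leukaemia inhibitory factor (Lif) pairs gp130 with Lifr, oncostatin M (Osm) pairs it with Osmr, and ciliary neurotrophic factor (Cntf) binds the membrane-anchored chain Cntfr before Lifr and gp130 join. The assembled receptors activate JAK kinases, which phosphorylate Stat3, and Stat3 induces Socs3, which shuts the receptor off again. In the injured brain this pathway is known for driving the reactive state of astrocytes and for supporting the survival of neurons, which carry most of the Cntfr.

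The samples were ipsilateral cortex of C57BL/6 mice aged 8 weeks, taken 24 h after permanent occlusion of the left middle cerebral artery (pMCAO), a model of stroke without reperfusion. One group carried the genotype Ndrg2KO and the other was wild type; both had the same occlusion, and Ndrg2 is a stress-responsive gene expressed strongly in astrocytes. The labels used here do not say how the allele was made, whether animals were pooled, or that each sample was a separate animal, so the spread between samples may in part be technical. Total RNA was measured on 4 arrays with 2 colours, which shared a slide, and on each of them a Cy3-labelled knockout sample was hybridised with the Cy5-labelled wild-type sample of the same replicate number. No array had the dyes exchanged, so a dye effect of a single probe and the genotype cannot be told apart. Values are log2 ratios of knockout over wild type on an array, or normalized log2 intensities of a sample, and the number of arrays limits their precision.

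The targeted gene was checked first. The levels of Ndrg2 were 15.50, 15.56, 15.57 and 15.56 in knockout samples 1 to 4 and 15.72, 15.78, 15.75 and 15.67 in the wild-type samples. All 4 knockout samples lay below all 4 wild-type samples, and the ratio was -0.18 ± 0.05 (mean and SD of 4 arrays; limma, adjusted p = 0.0245), with the spot well above background in all 8 samples. Without replicate 1, 2 or 3, with the scanner software's log ratios and with the deposited series matrix, this call was lost. With the scanner software's log ratios the mean was -0.04 (limma, adjusted p = 0.528). Most of the signal thus remained in the knockout-labelled samples, and this probe does not settle the genotype. Over all probes tested, 19.5% had groups that did not overlap, and 11.7% were called lower. Which part of the gene was deleted is not given in the sources used here, so a probe outside that part would check nothing, and the samples are called knockout-labelled. Of the 43020 spots outside the controls, 73.6 to 79.0% per sample were well above background, and none was saturated. Of 84 marker genes of 10 cell types and tissues, 80 were tested, of which 79 were well above background in all 8 samples, and the neuronal markers Syt1 and Snap25 and the astrocyte markers Aldoc and Glul were among these. Ratios correlated across probes at 0.73 between arrays 1 and 2 and at 0.63 between arrays 3 and 4, against 0.41 to 0.47 between the other pairs.

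The sequence before the start of 3 members is shown because Cntfr was the member whose groups did not overlap, while Il6 and Socs3 had the widest ranges among the knockout-labelled samples. Each is the 250 bases before a RefSeq start site on GRCm38.p6, in the direction of the gene; of the 6 starts listed for Cntfr the outermost is shown. Capitals mark the only match to TTCNNNGAA, the motif bound by STAT factors, which reads the same on both strands.
Cntfr (chr4:41696038-41696287, minus strand): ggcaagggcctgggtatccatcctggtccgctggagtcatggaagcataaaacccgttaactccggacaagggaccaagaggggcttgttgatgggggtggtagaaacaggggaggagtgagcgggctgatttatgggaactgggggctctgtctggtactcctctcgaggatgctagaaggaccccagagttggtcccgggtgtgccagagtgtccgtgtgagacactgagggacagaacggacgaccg
Il6 (chr5:30012864-30013113, plus strand): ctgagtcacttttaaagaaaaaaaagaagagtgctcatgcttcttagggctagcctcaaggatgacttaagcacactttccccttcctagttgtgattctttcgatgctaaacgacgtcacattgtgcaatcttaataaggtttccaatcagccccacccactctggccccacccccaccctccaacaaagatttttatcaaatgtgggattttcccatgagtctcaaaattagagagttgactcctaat
Socs3 (chr11:117969367-117969616, minus strand): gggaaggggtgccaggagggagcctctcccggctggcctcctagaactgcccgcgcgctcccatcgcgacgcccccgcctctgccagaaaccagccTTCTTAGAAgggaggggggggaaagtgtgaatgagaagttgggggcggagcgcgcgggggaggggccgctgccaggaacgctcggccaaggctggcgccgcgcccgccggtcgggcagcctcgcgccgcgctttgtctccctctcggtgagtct
RefSeq promoters were matched for 9 of the 10 members, with 15 windows in all, and 1 window, that of Socs3, held the motif, beginning at position -154 from the start. Over all 32851 windows of this length 7.02% held it. A match describes the letters only.

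Across the 14 probes, 1 was higher and 0 were lower at an adjusted p under 0.05 in the limma fit over all 30259 probes tested, in which 9.28% were called higher and 11.7% lower (21.0% in all). All 14 passed the filter on dim probes, which asked for a signal well above background on at least 3 arrays in either channel. The median ratio of the members was -0.10, against -0.01 for all probes tested. Because the contrast was known when the members were chosen, nothing is read from these counts. The sign was the same on all 4 arrays for 2 probes, that of Cntfr, which was positive, and the first of Lifr, which was negative; over all probes tested this was so for 43.3%.

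**Figure D1:**
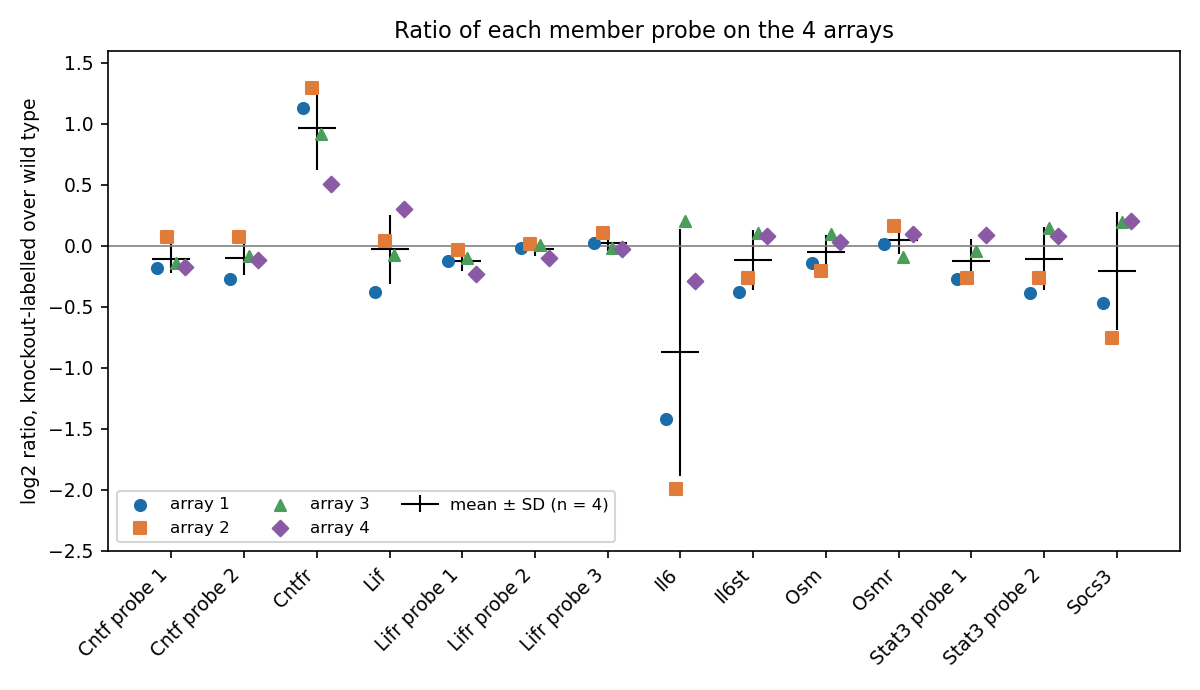
Ratio of the knockout-labelled to the wild-type sample on a log2 scale (vertical axis) for each of the 14 member probes (horizontal axis), with a symbol for each array and a bar for the mean ± SD (n = 4). Cntfr lies at 0.51 to 1.29 on every array, Il6 and Socs3 reach -1.996 and -0.76 on array 2, and the other probes stay between -0.38 and 0.30.

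Cntfr, the gene for the ligand-binding chain of the Cntf receptor, was the member with the largest ratio. Its levels were 11.07, 10.67, 10.702 and 10.005 in knockout-labelled samples 1 to 4 and 9.93, 9.38, 9.78 and 9.50 in the wild-type samples. The lowest knockout-labelled sample was thus above the highest wild-type sample, and Cntfr was the only one of the 14 probes whose groups did not overlap, against 19.5% of all probes tested. On arrays 1 to 4 the ratios were 1.13, 1.29, 0.92 and 0.51, with a mean of 0.96 ± 0.34 (SD, n = 4), or 1.95-fold. Array 4 had the smallest ratio, and its knockout-labelled sample was lower than the other 3, while its wild-type sample lay inside the wild-type range. In the order of all tested probes by mean ratio this probe stood at place 17 from the top. The spot was 20.9 to 35.0 times its local background in the knockout-labelled samples and 11.8 to 15.9 times in the wild-type samples, so neither group was near the detection limit. As a single probe it gave no second measurement of the gene, and it cannot separate transcripts.

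Cntf, the gene of the ligand of that receptor, had ratios near 0. Its first probe read 9.37, 9.58, 9.56 and 9.35 in the knockout-labelled samples and 9.55, 9.51, 9.70 and 9.52 in the wild-type samples. The groups overlapped, and the ratios of -0.18, 0.07, -0.14 and -0.17 averaged -0.11 ± 0.12. The other probe of Cntf gave -0.10 ± 0.14, with the one positive value on array 2 in both probes.

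Il6, the inflammatory cytokine gene of the family, had the widest range of all members. In knockout-labelled samples 1 to 4 its levels were 7.93, 7.64, 10.24 and 9.73, and in the wild-type samples 9.34, 9.64, 10.03 and 10.02. Samples 1 and 2 of the knockout-labelled group lay below every other sample, and samples 3 and 4 lay inside or just above the wild-type range, so the groups overlapped. The ratios were -1.42, -1.996, 0.21 and -0.29, with a mean of -0.87 ± 1.01. The spread within the knockout-labelled group (SD 1.29) was larger than that within the wild-type group (SD 0.33). Against local background the spot stood at 3.57, 3.22, 18.6 and 16.6 in the knockout-labelled samples and at 11.5 to 18.3 in the wild-type samples.

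The other ligand genes gave weak spots. Lif, whose product binds Lifr, was well above background in 2 of 4 knockout-labelled samples and in all 4 wild-type samples, at 1.27 to 2.92 times local background over the 8 samples. Its ratios of -0.38, 0.04, -0.08 and 0.30 averaged -0.03 ± 0.28. Osm, a cytokine gene of myeloid cells, was at 1.59 to 2.13 times local background, with levels of 6.65, 6.54, 6.84 and 6.82 in the knockout-labelled samples and 6.74 to 6.79 in the wild-type samples. Knockout-labelled samples 1 and 2 were the lowest of the 8 and samples 3 and 4 the highest, and the mean ratio was -0.05 ± 0.14. With median centring of the arrays in place of a loess fit, the means of Lif and Osm turned to 0.50 and 0.40, and with the scanner software's ratios they were -0.59 and -0.17.

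Il6st, the gene of the shared gp130 chain, showed the same division of samples on a smaller scale. Its levels were 11.19, 11.35, 11.68 and 11.61 in the knockout-labelled samples and 11.57, 11.62, 11.58 and 11.53 in the wild-type samples. Samples 1 and 2 of the knockout-labelled group were the lowest of all 8, samples 3 and 4 lay at the upper end, and the ratio averaged -0.12 ± 0.24. The wild-type samples spanned 0.09 in all, against 0.49 for the knockout-labelled ones.

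Lifr and Osmr, the chains that pair with gp130, stayed close to 0. For the first Lifr probe the levels were 11.38, 11.56, 11.55 and 11.33 in the knockout-labelled samples and 11.50, 11.60, 11.65 and 11.57 in the wild-type samples. The knockout-labelled sample was the lower one on each array, by 0.12 ± 0.08 on average, but the groups overlapped. The other 2 Lifr probes gave -0.02 ± 0.06 and 0.02 ± 0.06. Osmr had levels of 11.60, 11.73, 11.89 and 11.60 in the knockout-labelled samples and 11.59, 11.57, 11.98 and 11.50 in the wild-type samples. Here sample 3 was the highest in both groups, and the ratio was 0.05 ± 0.11, which turned to -0.27 with median centring.

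Stat3, the transcription factor of the pathway, had a probe that was spotted 10 times on each array, so that the error between spots could be set beside that between arrays. Within an array the ratios of these spots had an SD of 0.03 to 0.04, over 9 spots on array 2 and 10 on each other array. The array means were -0.27, -0.26, -0.04 and 0.09, with an SD of 0.18 between arrays. Spots of an array share both samples, so their SD is technical only. The mean was -0.12 ± 0.18. In levels, knockout-labelled samples 1 to 4 read 12.65, 12.86, 13.27 and 13.10, and the wild-type samples 12.93, 13.12, 13.31 and 13.01. The second Stat3 probe gave -0.38, -0.27, 0.15 and 0.08, again negative on arrays 1 and 2, with a mean of -0.11 ± 0.26.

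Socs3, the feedback inhibitor gene, was also low on arrays 1 and 2, with larger steps. Its levels were 12.09, 12.00, 13.08 and 12.87 in the knockout-labelled samples and 12.55, 12.75, 12.88 and 12.67 in the wild-type samples. Knockout-labelled samples 1 and 2 were the lowest of the 8 and sample 3 was the highest. The ratios of -0.47, -0.76, 0.20 and 0.20 averaged -0.20 ± 0.48, and the SD was 0.54 within the knockout-labelled group against 0.14 within the wild-type group.

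**Figure D2:**
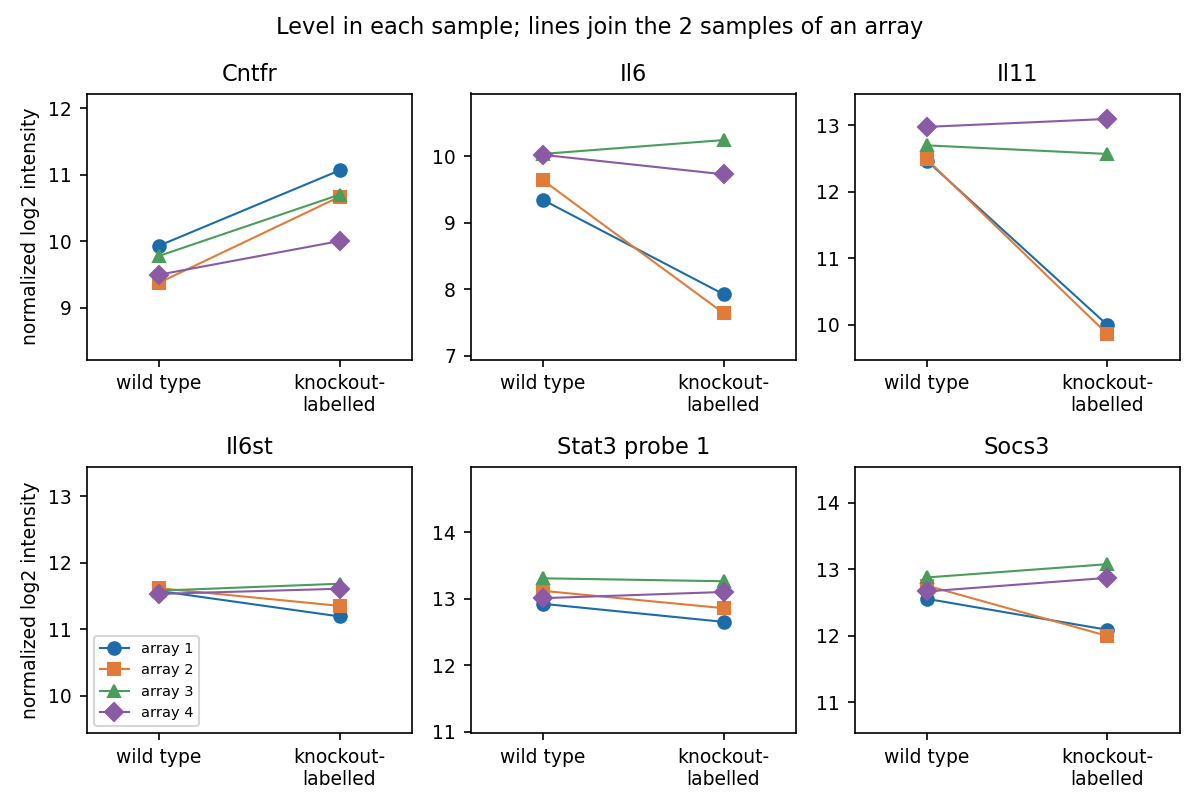
Normalized log2 intensity (vertical axis, the same span in each panel) of Cntfr, Il6, Il11, Il6st, the first Stat3 probe and Socs3 in each wild-type and knockout-labelled sample, with a line joining both samples of an array. The lines of Cntfr rise on all 4 arrays, while those of Il6, Il11, Il6st, Stat3 and Socs3 fall on arrays 1 and 2 and move by no more than 0.29 on arrays 3 and 4.

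The spread among samples was larger in the knockout-labelled group for 12 of the 14 member probes, a count made after the values were seen. Over all tested probes this was so for 61.7%. The median SD of a member was 0.19 among knockout-labelled and 0.11 among wild-type samples, and the medians over all tested probes were 0.09 and 0.08. The exceptions were Osmr and the third Lifr probe.

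Of the other cytokines of the family, 1 of 7 tested genes rose, none fell and 6 did not pass. That call was lost without replicate 1. Il11, the gene of another gp130 ligand, had levels of 9.99, 9.86, 12.57 and 13.09 in the knockout-labelled samples and 12.47, 12.49, 12.70 and 12.97 in the wild-type samples. As with Il6, knockout-labelled samples 1 and 2 lay far below the rest, and the mean of -1.28 ± 1.47 did not pass (limma, adjusted p = 0.0928), but did without replicate 4, at -1.74. Il27, which encodes a subunit of interleukin-27, was at 0.09 ± 0.03 (adjusted p = 0.149). The list's median was 0.05.

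Of the other receptor chains 4 were tested, of which 1 fell, none rose and 3 did not pass. Il6ra, the chain that binds interleukin-6, had ratios of -0.44, -0.43, -0.24 and -0.24 on arrays 1 to 4 and a mean of -0.34 ± 0.11 (limma, adjusted p = 0.00808); the call was lost without the replicate block. Il11ra1, which binds interleukin-11, was at 0.17 ± 0.15 (adjusted p = 0.0922) and turned to -0.25 with median centring. Il27ra, the interleukin-27 receptor gene, did not stand well above background in the knockout-labelled samples. It passed the filter on dim probes through the wild-type samples alone. Its ratio was -0.12 ± 0.16 (limma, adjusted p = 0.21), positive on array 3, and stood at -0.59 with the scanner software's ratios and at 0.46 with median centring.

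JAK kinase and other STAT genes were lower in 5 of 10 cases, none was higher, and 5 did not pass, where 11.7% of all probes were called lower. The list's median was -0.17, against -0.01 for all probes, and it stayed below 0 on each array. Stat6, the factor of interleukin-4 signalling, fell by 0.27 ± 0.06 (limma, adjusted p = 0.00865) and passed under every alternative run. Stat5b and Jak2 fell by 0.20 ± 0.09 and 0.19 ± 0.09 (adjusted p = 0.0301 and 0.0323). The further 2 were Stat2 and Jak3, named because they passed, at -0.31 ± 0.22 and -0.23 ± 0.17. Other probes of Stat6 stood at 0.02 and -0.11 and that of Stat5b at 0.02, whereas that of Jak3 stood at -0.19. Of this list 2 were lower with the ratios of the scanner software, and with 1 array left out 1 or 2, the fewest without replicate 1. Without the replicate block 3 were lower. With the scanner software's ratios, and also with no background correction, 1 gene of the list was higher.

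Among 15 genes of negative regulators 1 rose, none fell and 14 did not pass. Socs7, a relative of Socs3, rose by 0.27 ± 0.12 (limma, adjusted p = 0.0163), a direction that turned to -0.18 with median centring, and the call was lost without replicate 1 or 2. Pias1, a STAT inhibitor gene, was at -0.15 ± 0.08 and the phosphatase gene Ptpn6 at -0.29 ± 0.26, and neither passed (adjusted p = 0.0564 and 0.0594). The list's median was 0.01.

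Genes known to be induced through gp130 and Stat3 had a median ratio of -0.25, and most did not pass. Of 30 tested, 5 fell, none rose and 25 did not pass, where 11.7% of all probes were called lower. The mean was below 0 for 27 of them. The share of all probes below 0 was not counted, and the median over all probes tested was -0.01. Whether the values of this list reflect gp130 and Stat3 or another inducer was not tested. Vegfa, the vascular growth factor gene, fell by 0.26 ± 0.12, the transcription factor gene Cebpb by 0.22 ± 0.08 and the interleukin-4 receptor gene Il4ra by 0.44 ± 0.32 (limma, adjusted p = 0.0177, 0.0181 and 0.0313). Second probes of Vegfa and Il4ra stood at -0.10 and -0.09 and did not pass (adjusted p = 0.213 and 0.186). The other 2 were Ifitm3, an interferon-inducible gene, at -0.50 ± 0.41 and the ceruloplasmin gene Cp at -0.23 ± 0.17. Without replicate 1 or without replicate 2 no gene of this list passed, without replicate 4 there were 8, and with the scanner software's log ratios or without the replicate block 1.

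**Figure D3:**
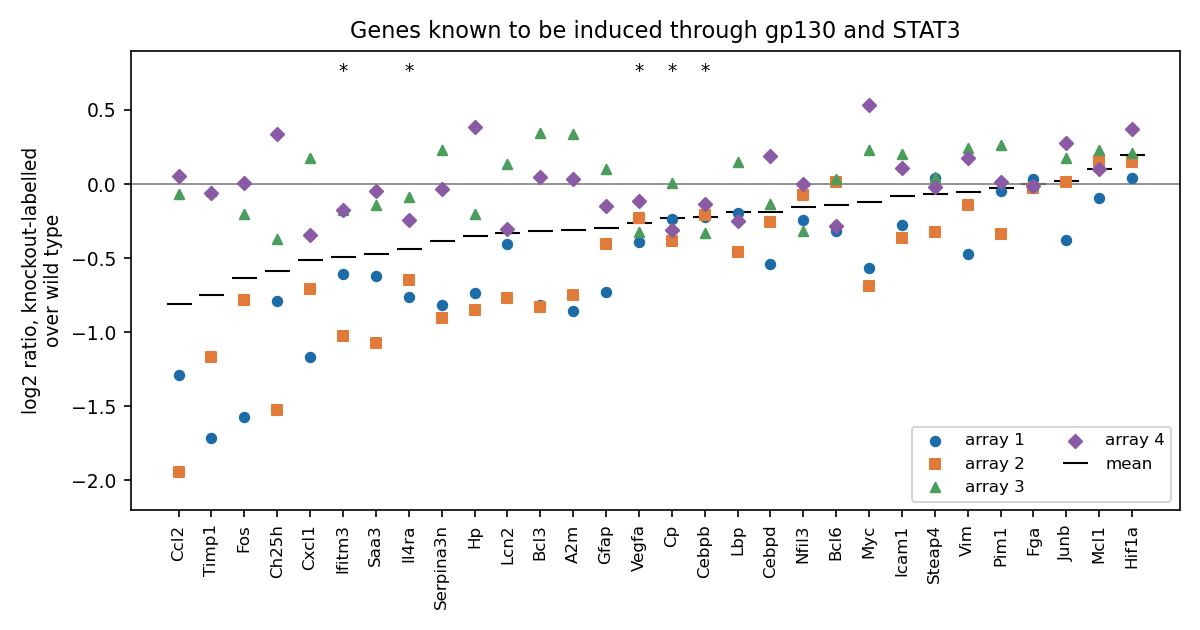
Ratio of the knockout-labelled to the wild-type sample on a log2 scale (vertical axis) for the 30 tested genes known to be induced through gp130 and STAT3, ordered by their mean (black bars), with a symbol for each array; asterisks mark the 5 genes with an adjusted p under 0.05. Arrays 1 and 2 reach -1.94 at Ccl2, while arrays 3 and 4 stay between -0.37 and 0.53.

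The list differed between arrays, with medians of -0.51, -0.43, 0.04 and -0.01 on arrays 1 to 4. Several members with large means, chosen after their values were seen, divided the samples like Il6 and Socs3. For Timp1, a protease inhibitor gene, the ratios were -1.72, -1.17, -0.05 and -0.06, and for the chemokine gene Ccl2 they were -1.29, -1.94, -0.07 and 0.06. Serpina3n, a gene of reactive astrocytes, gave -0.82, -0.91, 0.23 and -0.03. None of these 3 passed (limma, adjusted p = 0.0859, 0.103 and 0.175). The filament gene Gfap had 3 probes that disagreed in size, at -0.30 ± 0.35, -0.62 ± 0.27 and -0.15 ± 0.24, of which the second fell in the test of all probes (limma, adjusted p = 0.00704).

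**Figure D4:**
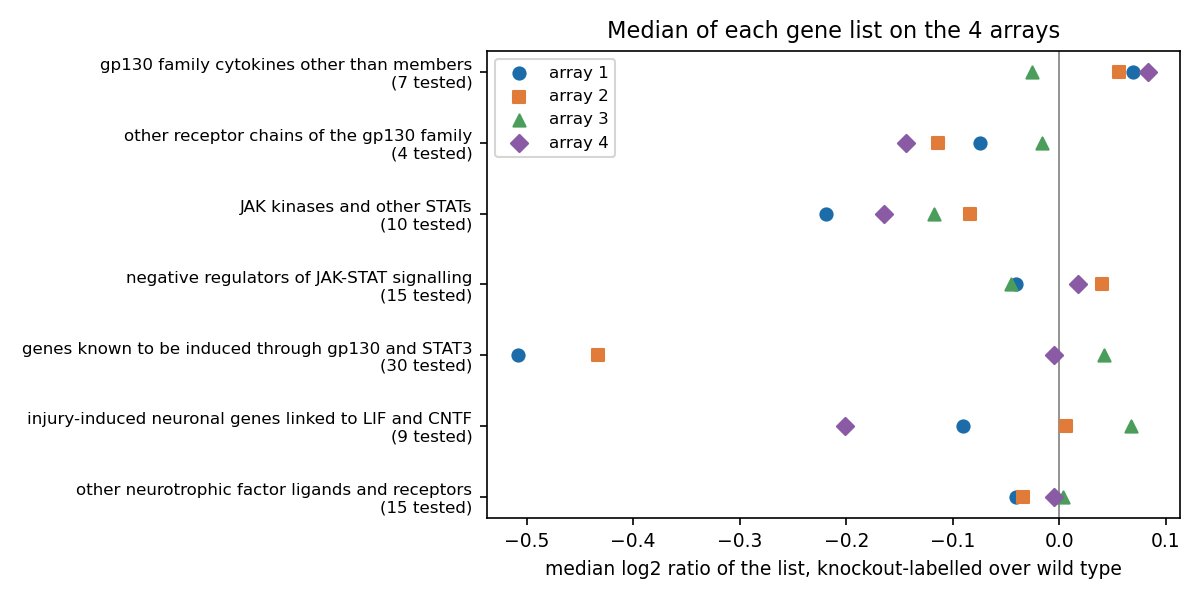
Median log2 ratio (horizontal axis) of the tested genes of each of the 7 lists (vertical axis), with a symbol for each array. The list of genes induced through gp130 and STAT3 lies at -0.51 and -0.43 on arrays 1 and 2 and at 0.04 and -0.01 on arrays 3 and 4; no other list goes below -0.22.

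Markers of several cell types also had their lowest medians on arrays 1 and 2. Monocyte and macrophage markers had medians of -0.51, -0.53, -0.17 and 0.21 on arrays 1 to 4 (8 tested, 3 lower), and neutrophil markers of -0.19, -0.30, -0.11 and 0.04 (8 tested, 2 lower). The same arrays were the lowest for oligodendrocyte markers, with medians of -0.13, -0.26, 0.27 and 0.44 (6 tested, 1 higher), for endothelial markers, with -0.15, -0.17, 0.05 and 0.05 (7 tested, none passed), and for erythrocyte markers, with -0.15, -0.63, 0.03 and 0.19 (3 tested, none passed). Microglial markers were lower in 4 of 8, where 11.7% of all probes were, with medians of -0.12, -0.11, -0.09 and -0.21. The lowest median was on array 4 for astrocyte markers too, with -0.15, -0.20, -0.08 and -0.26. So it was for markers of meninges and choroid plexus, with -0.20, -0.12, 0.02 and -0.23 (8 tested, 2 lower). The 4 lower microglial markers, named because they passed, were Cx3cr1, Olfml3, Aif1 and Siglech. Second probes of Cx3cr1 and Siglech, at -0.09 and 0.09, did not pass, while that of Olfml3, at -0.42, did. The summed signal of the neutrophil markers, on the log2 scale, was 15.47 to 15.72 in the knockout-labelled and 15.81 to 16.02 in the wild-type samples, but most of it came from Csf3r, whose own levels were 15.33 to 15.62 and 15.53 to 15.81. Csf3r, a neutrophil receptor gene, had ratios of -0.11, -0.31, -0.36 and -0.21 and fell by 0.25 ± 0.11 (limma, adjusted p = 0.0198), though not without replicate 2 or 3, without the block or with the scanner software's ratios. S100a9, a calprotectin subunit gene, gave -0.99, -1.18, -0.12 and 0.14 (adjusted p = 0.106). Csf3r had a mean level of 15.56, against 11.91 for S100a9, and its smallest ratio was on array 1. Whether the signal of Csf3r came from neutrophils was not tested. Camp, Cxcr2 and Mpo, the neutrophil markers nearest to 0, were at -0.06, -0.05 and -0.04 and did not pass. The 3 lower genes of the monocyte and macrophage list, named because they passed, were Adgre1, Itgam and Ly6c1. Whether these 3 set infiltrating cells apart from microglia or vessels was not tested. Second probes of Adgre1 and Ly6c1, at -0.09 and -0.01, did not pass. Further probes of Itgam stood at -0.18, which passed, and -0.03, which did not. Ms4a7 and Ccr2, the markers of this list nearest to 0, were at -0.05 and -0.03. Striatal markers, a gauge of the dissection, had medians of -0.28, -0.46, 0.22 and -0.03, and none of 7 passed. The part of cell composition and of the dissection in the values of Il6, Socs3 and the induced genes was not tested, and in bulk tissue fewer cells of a type and less RNA per cell cannot be told apart.

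Neuronal markers, which bear on Cntfr, lay near 0 in the median. Of 15 tested, 1 was higher, 3 were lower and 11 did not pass. Over all probes 9.28% were called higher and 11.7% lower. The list's median was 0.02, with array medians of 0.02, -0.03, 0.04 and -0.04. The higher one, named because it passed, was Nefm at 0.26 ± 0.04 (limma, adjusted p = 0.0083). Nefm lies on chromosome 14, as does Ndrg2, and whether that bears on its ratio was not tested. Rbfox3 was at -0.12 and did not pass, while further probes stood at 0.35, which passed, and -0.05, which did not. Syt1, a synaptic vesicle gene, was at 0.20 ± 0.14 (limma, adjusted p = 0.0511), passed at 0.31 with the scanner software's ratios and turned to -0.49 with median centring. Snap25, a gene of the same machinery, was at -0.09 ± 0.06 (adjusted p = 0.192). The summed neuronal signal was 18.37 to 18.50 in the knockout-labelled and 18.42 to 18.47 in the wild-type samples. Astrocyte markers were lower in 4 of 10, where 11.7% of all probes were, none was higher and 6 did not pass. Aldoc was at -0.39 ± 0.09 and Glul at -0.25 ± 0.06 (limma, adjusted p = 0.00395 and 0.01), and neither passed with the scanner software's log ratios. The summed signal of the 10 astrocyte markers was 17.75 to 17.90 against 18.05 to 18.12. Aldoc, the brightest of them, weighed most in this sum, and its own levels were 16.46 to 16.72 against 16.95 to 17.04. The 6 astrocyte markers that did not pass had mean ratios between -0.11 and 0.12. The part of cell composition in the Cntfr ratio was not tested.

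Of 16042 named genes outside the members, 5 had ratios nearest to those of Cntfr over the 4 arrays, by Euclidean distance. The nearest was Ccny, a cyclin family gene, at 1.08, 1.13, 0.73 and 0.34 on arrays 1 to 4 (distance 0.306). It was followed by the splicing regulator gene Celf3 (mean 0.96 ± 0.18, distance 0.322), the RNA-binding protein gene Raly (0.87 ± 0.15, distance 0.408), Prr7, which encodes a membrane protein of the synapse (0.76 ± 0.32, distance 0.434), and the purine nucleoside phosphorylase gene Pnp2 (0.94 ± 0.09, distance 0.599). Pnp2 has a close paralog that a probe may not separate. It lies on chromosome 14, as does Ndrg2, whereas Cntfr is on chromosome 4 and Ccny, Celf3, Raly and Prr7 are on others. Whether a place on the chromosome of the targeted gene bears on the ratio of Pnp2 was not tested. In Ccny and Prr7 the ratio on array 4 was also the smallest, at 0.34 and 0.32, and in Celf3 and Raly it was 0.73 and 0.66. The likeness rests on 4 arrays and on a single probe of Cntfr.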

How the data were processed

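RNA from 4 pairs of samples was measured on 4 arrays; the labels' protocols give 200 ng per labelling reaction. Per the file headers, the scanner files came from Agilent Feature Extraction 11.0.1.1, while the submitters' processing notes name 10.7.3.1. Spot and background intensity values were used as deposited. The deposited log10 ratio is Cy5 over Cy3 of the software's background-subtracted, dye-normalized signals, per the file headers. In the series matrix the deposited log2 values equalled log2 of processed Cy5 over Cy3 for 39030 of 39030 single-spot probes within 0.001, so its sign was turned; its medians were -0.05, -0.06, -0.04 and -0.03. The deposited flags are other values, 0 or 1.

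Background was corrected by normexp (offset 50) on median signals, and ratios by loess within arrays, with limma 3.58.1, statmod 1.5.0 and R 4.3.3. Control spots and 139 to 186 outlier spots per array were left out, and spots of a probe averaged. Levels are separate channels after loess and Aquantile. Accessions were named through RefSeq (GRCm38.p6), which gave 27427 probes (69.6%) a symbol. Ratios were tested against 0 with lmFit and eBayes over 30259 probes, adjusted by Benjamini-Hochberg at 0.05; the array pairs its 2 samples. For lists of genes the brightest probe stood for a gene. The steps were tested on simulated data. The members, the lists and the rule for named genes were chosen with earlier results of these data known. Named genes were the members, the 3 genes of each list with the smallest p, the 2 brightest neuron, astrocyte and neutrophil markers, Ndrg2 and the 5 genes nearest to Cntfr; any further gene was picked with its value in view, as the text states. Alternatives were other background corrections, centring, dim-probe filters, 1 probe per gene, no replicate block, the series matrix and each array left out. Some genes that this rule names are not reported here.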

Additional observations from a re-analysis of the deposited data

Results flagged for a closer look

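In 3 of 63 sets of 4 values examined, covering the ratios and both groups' levels of the members and the ratios of the genes named from lists, the end value stood apart from the other 3 by more of the whole range than Dixon's critical value allows; about 1 in 20 sets, here 3.15, would do so by chance. The first Cntf probe had a ratio of 0.07 on array 2 against -0.14 to -0.18 on the others, a gap of 0.845 of the range. Lif in the wild-type samples stood at 6.34 in sample 2 against 6.73 to 6.78, a gap of 0.889, near the detection limit. The third Lifr probe stood at 7.36 in knockout-labelled sample 1 against 7.51 to 7.52, a gap of 0.963.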

How the results depend on the processing

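Over 12 alternatives the ratio of Cntfr ranged from 0.71 to 1.12 and that of Il6 from -1.24 to -0.50, given as a description since the members were chosen on these arrays. When arrays were centred on the median and not by loess, the median of all probes moved from -0.01 to -0.16 and the lower share of calls from 55.7% to 66.3%, with 7899 probes higher and 15570 lower, against 2808 and 3533; 4 member probes were then higher and 8 lower, and 10 list genes higher and 60 lower. Under it Lif turned to 0.50, Osm to 0.40, Osmr to -0.27, Il11ra1 to -0.25, Il27ra to 0.46, Socs7 to -0.18 and Syt1 to -0.49. The 200 probes of a level like that of Osm then had a median of 0.46, and those like Osmr of -0.32, and those like Lif of 0.49; the other 4 were not set against probes of like intensity. The scanner software's log ratios gave 2028 lower probes and 4 lower genes over the 7 lists, against 15, and the series matrix 2027 and 4. With no background correction 5 list genes were higher, against 2. With no replicate block 1645 probes were higher, 1750 lower and 7 list genes lower. Leaving out 1 array gave 1064 to 1650 higher and 1355 to 2164 lower probes, 1 member higher each time and 0 to 1 lower, and 0 to 4 list genes higher and 2 to 15 lower, the fewest without replicate 1. Other causes were not tested. Lif and Osm are limited by signals near background.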

Other observations

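Other neurotrophic factors and their receptors were also measured, as a list set beside the gp130 pathway. Of 15 tested, 3 fell, none rose and 12 did not pass, with a median of -0.06. Bdnf, the gene of brain-derived neurotrophic factor, fell by 0.34 ± 0.18 and Gdnf, the gene of the glial cell line-derived factor, by 0.72 ± 0.57 (limma, adjusted p = 0.016 and 0.0332). The levels of Gdnf were 6.88, 6.71, 7.54 and 7.47 in knockout-labelled samples 1 to 4 and 7.96, 8.04, 7.66 and 7.83 in the wild-type samples, so the groups did not overlap, and knockout-labelled samples 1 and 2 were again the lowest. Over all probes tested, 19.5% had groups that did not overlap, and 11.7% were called lower. All 3 calls of the list were lost without replicate 1 and with the scanner software's log ratios. That of Gdnf was also lost without replicate 2, and its mean ratio was -1.45 with the scanner software's log ratios. The levels of Gdnf in knockout-labelled samples 1 and 2 were close to those of Osm, which lay near background.

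Of 9 neuronal genes induced by injury and linked to Lif and Cntf, 1 fell, none rose and 8 did not pass. Gap43, a growth cone gene, fell by 0.23 ± 0.11 (limma, adjusted p = 0.0253), a call lost without replicate 1 or 2 and with the scanner software's log ratios or the series matrix. Atf3, a transcription factor gene of injured neurons, had ratios of -0.65, -0.90, -0.03 and -0.12 (adjusted p = 0.0672), and Sox11 was at 0.10 ± 0.11 (adjusted p = 0.226), while its second probe rose by 0.20 ± 0.08 (adjusted p = 0.0229).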
